A study of Mus musculus with 6 samples.

Results

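The genes described here encode the subunits of class I phosphoinositide 3-kinase (PI3K) and the AKT kinases, in luminal progenitor cells of the mouse mammary gland. They are *Pik3ca*, *Pik3cb*, *Pik3cd* and *Pik3cg*, which encode catalytic subunits, *Pik3r1*, *Pik3r2* and *Pik3r3*, which encode regulatory subunits, and *Akt1* and *Akt2*. These 9 of the 18537 gene rows in the deposited table were chosen by symbol, with earlier results of the same libraries known. Those earlier results included a lower value of *Pik3cd* in *Robo1-/-* cells. Differences between the genotypes are therefore given for these genes as a description.

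Luminal progenitor cells were sorted as Lin-CD24loCD29+CD61+ from the glands of nulliparous females aged 10 to 12 weeks. The mice came from crosses of *Robo1+/-* parents, and the groups were *Robo1+/+* and *Robo1-/-* littermates with no treatment. ROBO1 is a receptor for the secreted SLIT proteins, and the *Robo1-/-* mice carried the *Robo1* tm1Matl allele on both chromosomes. The allele was present in all cells of the animal and not in the mammary epithelium alone. Poly(A)+ RNA was sequenced from 3 libraries per genotype, each made from 2 pooled animals: gh03, gh09 and gh15 for *Robo1+/+*, and gh06, gh12 and gh18 for *Robo1-/-*.

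Class I PI3K is a pair of proteins, a catalytic subunit that makes the lipid messenger PIP3 at the cell membrane and a regulatory subunit that brings it to activated receptors. The alpha, beta and delta catalytic subunits (class IA) pair with the products of *Pik3r1*, *Pik3r2* and *Pik3r3*, and the gamma subunit (class IB) pairs with those of *Pik3r5* and *Pik3r6*. PIP3 draws AKT to the membrane, where PDPK1 and the mTORC2 complex phosphorylate it. In the mammary gland the pathway acts downstream of insulin and prolactin signals, and AKT1 is known for its part in the secretory epithelium. The delta and gamma subunits are best known from leukocytes.

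The deposited value of a gene is its read count divided by a size factor for the library, called here the normalized read count. The libraries held between 9727191 and 17433868 reads. *Robo1*, the mutated gene, was at 289, 574 and 541 in *Robo1+/+* and at 130, 214 and 177 in *Robo1-/-*, so the genotypes did not overlap. The luminal keratin genes and *Epcam* summed to between 97667 and 109074 in *Robo1+/+* and to between 38423 and 118502 in *Robo1-/-*, where gh18 was the lowest. *Itgb3*, which encodes the CD61 used in the sort, was present at 387 to 1317. The 6 markers of luminal progenitors summed to 20983 to 40352 in *Robo1+/+* and to 26678 to 45782 in *Robo1-/-*. The 6 markers of mature, hormone-sensing luminal cells summed to 32076 to 45546 in *Robo1+/+* and to 45377 to 53576 in *Robo1-/-*. The genotypes barely overlapped in this mature luminal sum. Most of it was *Prlr*, at 20097 to 37136, with *Esr1* at 1346 to 2694. *Pgr* did not overlap, at 1721 to 3394 in *Robo1+/+* and 3752 to 5481 in *Robo1-/-*, while the other markers of that list did. Listed markers of both cell types were thus present in cells sorted as progenitors. Whether the makeup of the sorted cells bears on the genotype differences was not tested. In bulk RNA, fewer cells of a type and less RNA per cell cannot be told apart. Values in gh18 also varied with transcript GC content, as given further on. The part of GC content in the low luminal sum of gh18 was not tested.

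The catalytic genes and the AKT genes each encode a conserved kinase core, and their bases are shown because family members spell it with different amounts of G and C, and the GC content of whole transcripts is set beside the values of gh18 further on. The sequences come from the NCBI37/mm9 assembly with GENCODE M1 exons, in which all 9 genes were found, and are written 5′ to 3′ on the coding strand with every G and C in capitals. For the catalytic subunits the stretch runs over 21 codons, from the catalytic loop to the end of the magnesium-binding motif, and joins parts of neighbouring exons.
Pik3ca: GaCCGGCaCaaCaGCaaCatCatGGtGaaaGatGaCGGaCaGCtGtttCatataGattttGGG
Pik3cb: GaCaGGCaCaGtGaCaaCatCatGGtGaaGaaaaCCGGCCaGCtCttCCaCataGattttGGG
Pik3cd: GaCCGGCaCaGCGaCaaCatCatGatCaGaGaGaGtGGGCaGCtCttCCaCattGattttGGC
Pik3cg: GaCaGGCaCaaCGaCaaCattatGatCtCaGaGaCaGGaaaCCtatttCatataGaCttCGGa
For AKT the stretch is the activation segment in exon 10 of 14, over 28 codons, which holds the threonine that PDPK1 phosphorylates.
Akt1: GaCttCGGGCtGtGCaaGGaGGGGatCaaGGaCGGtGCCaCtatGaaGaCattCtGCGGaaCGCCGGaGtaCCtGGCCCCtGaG
Akt2: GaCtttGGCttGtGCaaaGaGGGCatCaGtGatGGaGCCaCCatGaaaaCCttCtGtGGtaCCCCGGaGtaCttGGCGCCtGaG
*Akt1* and *Akt2* encoded the same residue at 27 of the 28 codons, yet only 67 of the 84 bases were the same. G or C made up 60.7% of this segment in *Akt1* and 54.8% in *Akt2*. At the third base of the 28 codons, 23 were G or C in *Akt1* and 19 in *Akt2*. Among the catalytic genes *Pik3cd* had the highest share, 52.4%, and *Pik3cg* the lowest, 41.3%. *Pik3ca* and *Pik3cd* encoded the same residue at 15 of 21 codons.

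In mm9 the catalytic segments lie at chr3:32360478-32360639 on the plus strand for *Pik3ca*, and on the minus strand at chr9:98943068-98945205 for *Pik3cb*, chr4:149026461-149026761 for *Pik3cd* and chr12:32877077-32878500 for *Pik3cg*, introns included. The AKT segments lie within single coding exons, at chr12:113895279-113895362 on the minus strand for *Akt1* and chr7:28421103-28421186 on the plus strand for *Akt2*. The 9 genes lie on 7 chromosomes. *Pik3cd* (chr4:149023277-149076680) and *Pik3r3* (chr4:115894223-115975661) share a chromosome, as do *Pik3cg* (chr12:32858338-32893524) and *Akt1* (chr12:113892032-113913095), in both cases far apart. Only *Pik3r1* (chr13:102450716-102538172) shared exon bases with another annotated gene, 27 bases with *Gm11016* on the opposite strand. Whether reads were counted by strand is not given in the sources used here.

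Each of the 9 genes had reads in every library and passed the filter on low values. *Pik3cd* had 19 to 144 reads per library, and the other 8 genes had 67 to 4224. Levels of different genes were compared per kilobase of the longest coding transcript. By mean level per kilobase in *Robo1+/+* the order was *Akt1*, *Pik3r1*, *Akt2*, *Pik3cb*, *Pik3ca*, *Pik3r2*, *Pik3cg*, *Pik3r3* and *Pik3cd*. *Akt1* stood at 1150 ± 60.2 (SD, n = 3), at percentile 93.9 of the genes that passed the filter and had a transcript length. *Pik3cd* stood at 21.0 ± 13.6, at percentile 14.2 of the same genes, so genes too low for the filter are not counted below it. The ranges of neighbours in this order overlapped except between *Akt1* and *Pik3r1*, between *Pik3cb* and *Pik3ca* and between *Pik3r3* and *Pik3cd*.

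**Figure D1:**
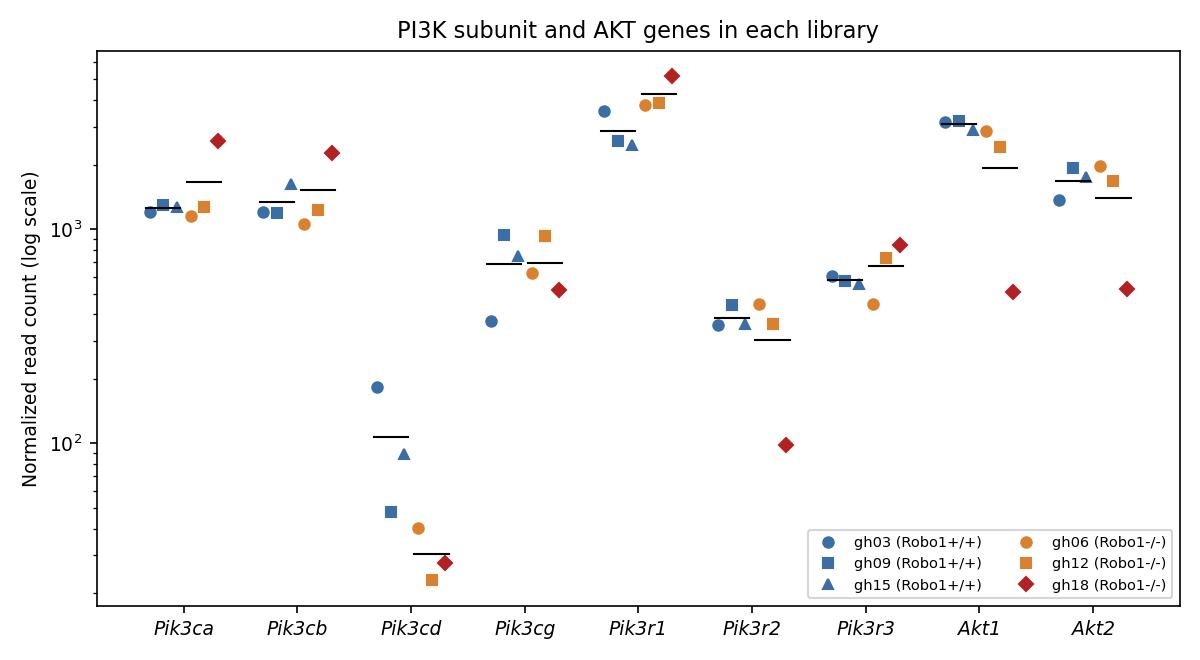
Normalized read count (log axis) of the 9 genes in each of the 6 libraries, with *Robo1+/+* in blue, *Robo1-/-* in orange and the *Robo1-/-* library gh18 in red. Black lines are genotype means. *Pik3cd* is the lowest gene throughout, and gh18 lies apart from the other 5 libraries for *Akt1*, *Akt2*, *Pik3r2*, *Pik3ca* and *Pik3cb*.

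*Pik3ca*, which encodes the alpha catalytic subunit used by many growth factor receptors, was at 1197, 1295 and 1271 in *Robo1+/+* and at 1153, 1261 and 2568 in *Robo1-/-*. *Pik3cb*, the beta subunit gene, was at 1196, 1186 and 1614 in *Robo1+/+* and at 1052, 1232 and 2268 in *Robo1-/-*. For both genes the genotypes overlapped and gh18 alone was high, at 213% of the mean of the other *Robo1-/-* libraries for *Pik3ca* and 199% for *Pik3cb*. The log2 fold change (*Robo1-/-* minus *Robo1+/+*, on log2(value + 1) as for all fold changes here) was 0.31 (SE 0.33) for *Pik3ca* and 0.12 (SE 0.33) for *Pik3cb*. Without gh18 these were -0.06 and -0.21.

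*Pik3cd* was far below both. It was at 183, 47.8 and 89.1 in *Robo1+/+* and at 40.3, 22.9 and 27.7 in *Robo1-/-*. Every *Robo1-/-* library lay below every *Robo1+/+* library, but the nearest values, 40.3 and 47.8, came from 35 and 61 reads, and the *Robo1+/+* libraries differed among themselves more than the genotype means did. The means were 107 ± 69.4 and 30.3 ± 8.97 (SD, n = 3 each), a ratio of 0.284, and the log2 fold change was -1.61 (SE 0.54). Library gh03 held the highest value of *Pik3cd*. Without it the *Robo1+/+* mean was 68.5, the ratio 0.443 and the log2 fold change -1.12, and without gh09 the log2 fold change was -2.08. After correction for GC content it was -1.06 (SE 0.63), and gh18, at a corrected value of 68.0, then lay above gh09, at 37.0.

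Markers of other cells were set beside *Pik3cd*. The 7 basal markers, genes of contractile myoepithelial cells such as *Krt14* and *Acta2*, summed to 1855 in gh03, 567 in gh09 and 1015 in gh15, and to 1299, 759 and 924 in gh06, gh12 and gh18. Within each genotype the libraries fell in the same order for the basal sum as for *Pik3cd*, while between the genotypes the basal sums overlapped. The order of gh12 and gh18 came from *Oxtr*, at 190 in gh12 and 512 in gh18, and slightly from *Trp63*, at 36.6 and 46.7. *Krt5*, *Krt14*, *Acta2*, *Myh11* and *Mylk* were lower in gh18 than in gh12, against the order of *Pik3cd*. Of 10 leukocyte markers 7 were in the table, and they summed to 121 to 160 in *Robo1+/+* and 97.8 to 123 in *Robo1-/-*, most of it *Cd68*. *Ptprc*, the pan-leukocyte marker CD45, had at most 1 read in any library. The part of these cells in the values of *Pik3cd* was not tested.

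*Pik3cg*, the class IB gene, was at 370, 942 and 748 in *Robo1+/+* and at 626, 929 and 518 in *Robo1-/-*. The genotypes overlapped, with means of 687 ± 291 and 691 ± 213 (SD, n = 3 each) and a log2 fold change of 0.07 (SE 0.41). Per kilobase of transcript, its *Robo1+/+* mean of 117 was close to the 141 of *Pik3ca* and above the 21.0 of *Pik3cd*. The *Pik3ca* transcript has 8917 bases, 3207 of them coding, and that of *Pik3cg* has 5871, with 3339 coding. Before division by length the *Robo1+/+* means were 1254 for *Pik3ca* and 687 for *Pik3cg*, so per coding length *Pik3cg* lay well below *Pik3ca*. The regulatory partners of *Pik3cg* were almost absent. *Pik3r5* had 0 to 12 reads per library, and *Pik3r6* had 1 read in gh03 and in gh12 and none in the other 4, where a count of 0 allows up to 3 reads, or a value of at most 4.38 in gh18. Both fell below the filter and were not tested. The library with the lowest *Pik3cg*, gh03, also had the lowest sum of the luminal progenitor markers, 20983, and gh18 came next in both. The markers did not move together, however. In gh03 *Ltf* (5244), *Aldh1a3* (1972) and *Itgb3* (387) were the lowest of all libraries, while *Elf5* (3901) and *Kit* (5644) were the highest. The highest *Pik3cg* values, in gh09 and gh12, went with marker sums of 40352 and 45782, of which *Ltf* was a large part, but gh06 had a sum of 41399 with *Pik3cg* at 626. Whether the makeup of the sorted cells bears on *Pik3cg* was not tested.

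Among the class IA catalytic genes, *Pik3cb* took 63.2% ± 4.33 of the summed level per kilobase in *Robo1+/+* and *Pik3ca* 32.0% ± 3.71 (SD, n = 3). In *Robo1-/-* the shares were 62.7% ± 1.25 and 36.0% ± 1.23. In all 6 libraries *Pik3cb* came first, but the size of its lead depended on the length used. The *Pik3ca* transcript has long untranslated sequence and measures 8917 bases, against 4730 for *Pik3cb*. Per coding length *Pik3ca* held 46.7% and *Pik3cb* 49.3% in *Robo1+/+*, and in *Robo1-/-* *Pik3ca* came first with 51.3% against 47.6%. The share of *Pik3cd* was 8.52%, 2.32% and 3.50% in *Robo1+/+* and 2.20%, 1.11% and 0.705% in *Robo1-/-*. The mean share was 4.78% in *Robo1+/+*, or 2.91% without gh03, and 1.34% in *Robo1-/-*.

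**Figure D2:**
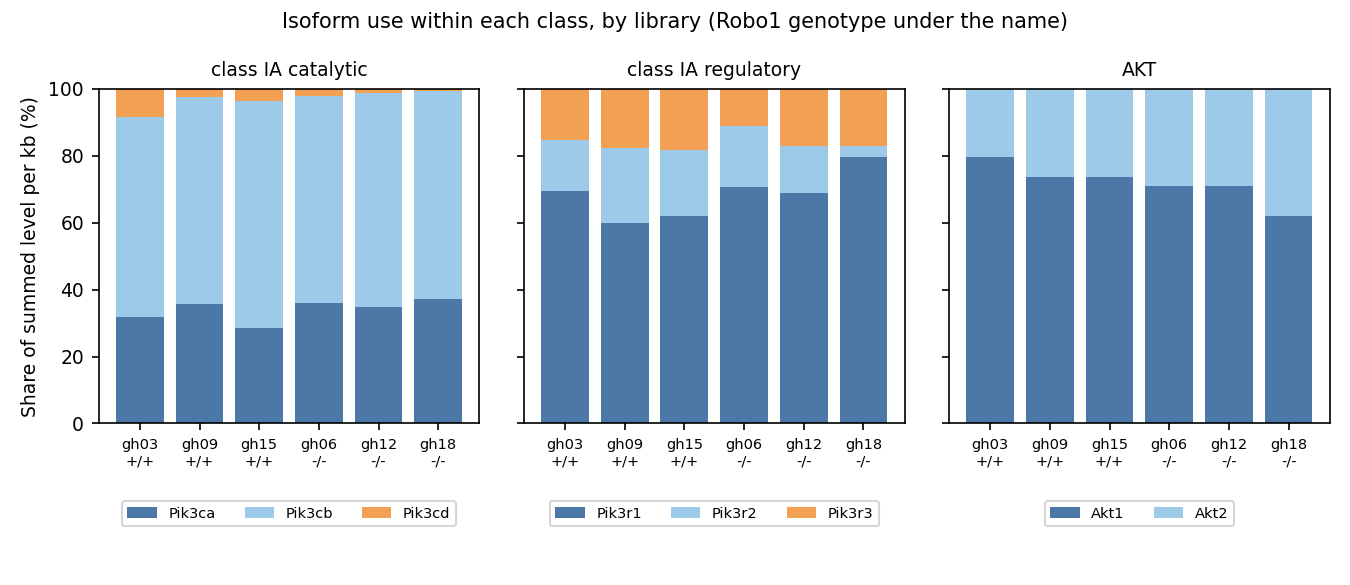
Share (%) of the summed level per kilobase that each gene took within the class IA catalytic, class IA regulatory and AKT genes, 1 bar per library with its *Robo1* genotype below. *Pik3cb*, *Pik3r1* and *Akt1* hold the largest shares in all 6 libraries, and the share of *Akt1* is lowest in gh18, at 62.0%.

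*Pik3r1* encodes the alpha regulatory subunit in a long form and in shorter forms, which stabilises the catalytic subunit and holds it inactive until a receptor is bound. The *Robo1+/+* libraries held 3573, 2576 and 2478, and the *Robo1-/-* libraries 3798, 3869 and 5180. Every *Robo1-/-* library lay above every *Robo1+/+* library. On the log2 scale the fold change was 0.58 (SE 0.24). It was 0.44 without gh18 and 0.36 (SE 0.17) after GC correction, when the corrected 3823 of gh03 lay above the 3708 of gh18. The gap was narrow, 3573 in gh03 against 3798 in gh06.

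*Pik3r2*, the beta regulatory subunit gene, was at 356, 440 and 359 in *Robo1+/+* and at 449, 360 and 97.8 in *Robo1-/-*. Only gh18 was low, at 24.2% of the mean of the other *Robo1-/-* libraries. The log2 fold change of -0.61 (SE 0.56) changed sign to 0.07 without gh18 and to 0.37 after GC correction. *Pik3r3*, which encodes the gamma regulatory subunit, was at 602, 571 and 553 in *Robo1+/+* and at 448, 732 and 840 in *Robo1-/-*. Its *Robo1-/-* values lay on both sides of the closely spaced *Robo1+/+* values, and the log2 fold change was 0.18 (SE 0.28), or -0.06 after GC correction.

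Per kilobase *Pik3r1* took 63.9% ± 4.95 of the class IA regulatory level in *Robo1+/+* and 73.1% ± 5.79 in *Robo1-/-* (SD, n = 3). Its share was 69.5%, 60.1% and 62.1% in *Robo1+/+* and 70.8%, 68.9% and 79.7% in *Robo1-/-*, and the groups overlapped. The summed regulatory level was 1.48 ± 0.31 times the summed class IA catalytic level in *Robo1+/+* and 1.79 ± 0.50 times in *Robo1-/-*. The ratio ranged from 1.15 to 1.76 in *Robo1+/+* and from 1.22 in gh18 to 2.16 in gh06, so the genotypes overlapped there as well.

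*Akt1*, the most abundant of these genes per kilobase, was at 3165, 3209 and 2909 in *Robo1+/+* and at 2865, 2410 and 508 in *Robo1-/-*. All *Robo1-/-* values were below all *Robo1+/+* values, by a narrow margin in gh06 and by far in gh18, which reached only 19.3% of the mean of the other *Robo1-/-* libraries. The means were 3094 ± 162 and 1928 ± 1250 (SD, n = 3 each), and the *Robo1-/-* mean was 2637 without gh18. The log2 fold change was -1.02 (SE 0.62), -0.24 (SE 0.14) without gh18 and -0.20 (SE 0.13) after GC correction, when the genotypes overlapped.

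*Akt2*, best known for its part in insulin responses, was at 1372, 1931 and 1745 in *Robo1+/+* and at 1971, 1671 and 525 in *Robo1-/-*. Here too gh18 was the low library, at 28.8% of the mean of the other *Robo1-/-* libraries. Its log2 fold change of -0.47 (SE 0.50) became 0.12 without gh18 and -0.09 after GC correction.

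Of the summed level of *Akt1* and *Akt2* per kilobase, *Akt1* took 75.7% ± 3.36 in *Robo1+/+* and 68.0% ± 5.17 in *Robo1-/-* (SD, n = 3). Its share was 79.6%, 73.7% and 73.8% in *Robo1+/+* and 71.1%, 70.9% and 62.0% in *Robo1-/-*, so the genotypes did not overlap, with gh18 the lowest. After GC correction the share was 70.6% to 76.9% in *Robo1+/+* and 66.2% to 76.2% in *Robo1-/-*, and the genotypes overlapped. Both genes were read against the same library, so this share does not depend on the size factor. Their summed level per kilobase was 304 in gh18 and 1264 to 1618 in the other 5 libraries.

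**Figure D3:**
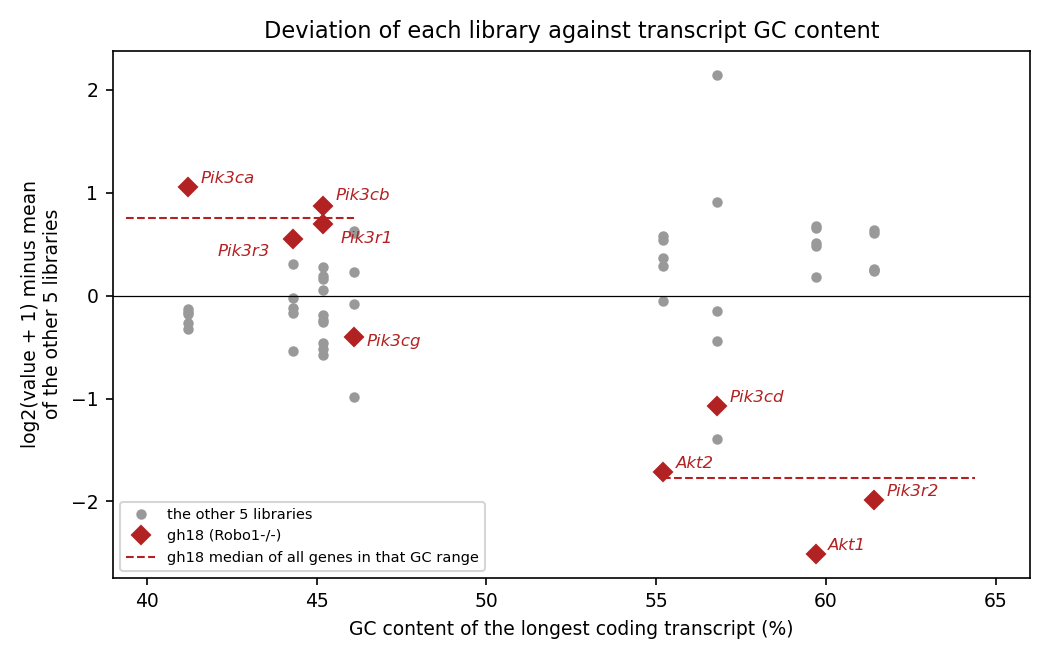
log2(value + 1) of the 9 genes in each library, minus the mean of the other 5 libraries, against the GC content (%) of the transcript. Red diamonds are gh18, grey points the other libraries, and dashed lines the median of gh18 over all genes in the same range of GC content. In gh18 the GC-rich genes *Akt1*, *Akt2*, *Pik3r2* and *Pik3cd* lie between -2.51 and -1.07 and the AT-rich genes other than *Pik3cg* between 0.55 and 1.06.

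The 9 transcripts fell into GC-rich and AT-rich sets with a gap between them. *Pik3r2* (61.4% G or C), *Akt1* (59.7%), *Pik3cd* (56.8%) and *Akt2* (55.2%) lay above the median of 50.6% over all genes with a transcript. *Pik3cg* (46.1%), *Pik3r1* and *Pik3cb* (both 45.2%), *Pik3r3* (44.3%) and *Pik3ca* (41.2%) lay below it. *Akt1* was also the more GC-rich of the AKT genes in the activation segment printed above. In gh18 the 4 GC-rich genes were below the mean of the other 5 libraries on the log2 scale, with differences of -2.51 for *Akt1*, -1.99 for *Pik3r2*, -1.71 for *Akt2* and -1.07 for *Pik3cd*. *Pik3ca* (1.06), *Pik3cb* (0.87), *Pik3r1* (0.69) and *Pik3r3* (0.55) were above it, and *Pik3cg* (-0.40) was the exception among the AT-rich genes.

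Over all genes of like composition, the median deviation in gh18 was -1.77 over the 2997 genes at least as GC-rich as *Akt2*, and 0.76 over the 3321 genes at most as GC-rich as *Pik3cg*. In the other 5 libraries these medians lay between 0.18 and 0.48 and between -0.20 and -0.01. The deviation of *Pik3cd* in gh18, -1.07, was taken against a mean that includes gh06 and gh12, where *Pik3cd* was also low. The median of -1.77 also covers genes more GC-rich than *Pik3cd*, so the 2 are not a like comparison. In gh06 and gh12 *Akt2* and *Pik3r2* lay within or just above the *Robo1+/+* range. *Akt1* lay just below it in gh06 and further below in gh12. The part of GC content in the values of *Pik3cd* was not tested.

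In limma's fit across the 13692 genes that passed the filter, 0 genes (0%) had an adjusted p under 0.05, and so 0 of the 9. At an unadjusted p under 0.05 limma had 231 genes, and edgeR and DESeq2 on the recovered reads made 0 and 1 adjusted calls and had 221 and 335 genes at that unadjusted threshold. The limma adjusted p of the 9 genes was between 0.858 and 0.962. By unadjusted limma p under 0.05, 1 of the 9 was lower in *Robo1-/-*, *Pik3cd*, where 0.92% of all tested genes were, and 1 was higher, *Pik3r1*, where 0.767% were. By values that did not overlap, 2 of the 9 were lower in *Robo1-/-* (*Pik3cd* and *Akt1*), against 4.58% of all tested genes, and 1 was higher (*Pik3r1*), against 4.83%. The 9 genes were chosen with this contrast known, so these counts are descriptions. With each library left out in turn the unadjusted limma p was 0.00714 to 0.064 for *Pik3cd*, above 0.05 without gh03, gh15 or gh12, and 0.0229 to 0.152 for *Pik3r1*, above 0.05 without any library but gh03. After GC correction it was 0.137 for *Pik3cd* and 0.0732 for *Pik3r1*. On the recovered reads the unadjusted p of *Pik3r1* was 0.061 in DESeq2 and 0.0564 in edgeR, and that of *Pik3cd* was 0.00198 and 0.0134. After GC correction none of the 9 had genotypes that did not overlap. The sign of the fold change differed from the uncorrected one for 5 of the 9 after GC correction and for 5 of the 9 without gh18. *Pik3cd*, *Akt1* and *Pik3r1* kept theirs under both. P-values here measure the spread between libraries of pooled animals.

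**Figure D4:**
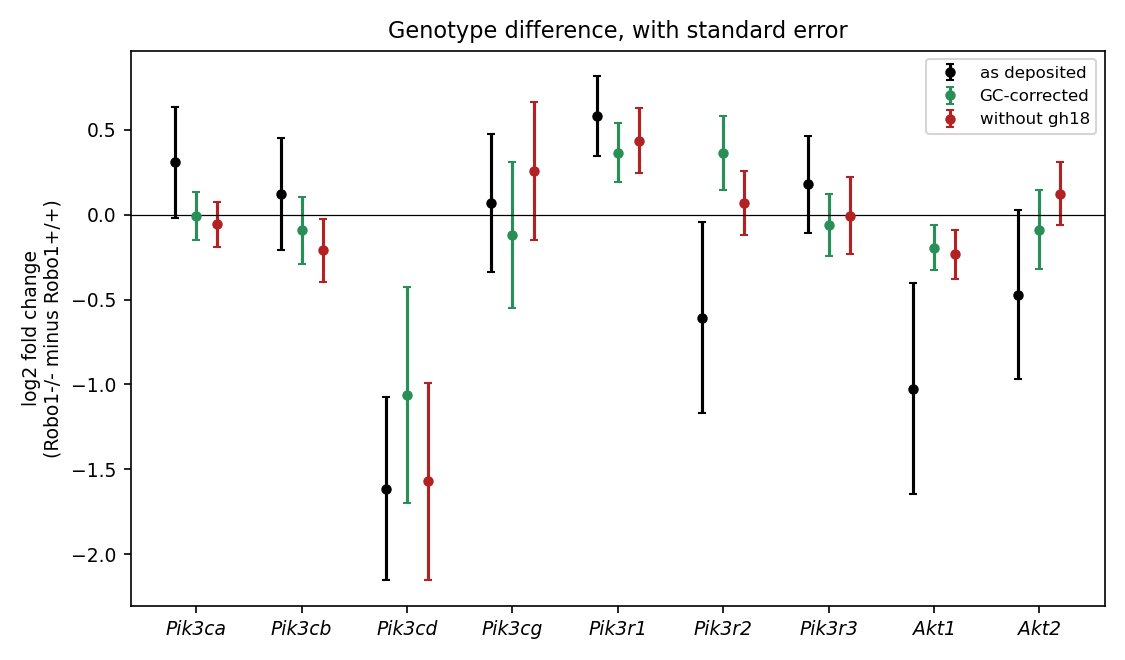
log2 fold change (*Robo1-/-* minus *Robo1+/+*) of the 9 genes with its standard error, as deposited (black), after GC correction (green) and without gh18 (red). *Pik3cd* has the lowest fold change under each of the 3, at -1.61, -1.06 and -1.57, and *Akt1* moves from -1.02 to -0.20 and -0.24.

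The rest of the pathway was read from 60 genes grouped by role, of which 54 passed the filter. None had an adjusted p under 0.05 in limma's fit, 1 was higher at an unadjusted p under 0.05 and 0 were lower. At that unadjusted threshold 0.767% of all tested genes were higher and 0.92% were lower. The median log2 fold change was -0.009, against 0.002 over all genes tested, and 28 of the 54 lay below 0. No gene of these lists both had genotypes that did not overlap and a log2 fold change beyond 1, so those named next were picked after their values were seen.

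Upstream of AKT, *Irs1*, an adaptor that links the insulin receptor to PI3K, was the gene with the unadjusted p under 0.05. It was at 720, 601 and 615 in *Robo1+/+* and at 1341, 787 and 1008 in *Robo1-/-*. The genotypes did not overlap, and the log2 fold change of 0.67 (SE 0.26) was 0.67 without gh18 and 0.66 after GC correction, with a limma adjusted p of 0.858. With gh03, gh09, gh15 or gh06 left out, no pathway gene was higher at an unadjusted limma p under 0.05, *Irs1* included. Its relative *Irs2*, with a GC content of 63.6%, was at 472, 359 and 425 in *Robo1+/+* and at 624, 249 and 51.1 in *Robo1-/-*, where gh18 was by far the lowest. *Pdpk1*, which encodes the kinase of the AKT activation segment, was at 1746, 1941 and 2028 in *Robo1+/+* and at 2045, 1870 and 3425 in *Robo1-/-*, again with gh18 alone high.

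Without regard to p, 6 of the 54 pathway genes had values that did not overlap between the genotypes. Of the 54, 3 were lower in *Robo1-/-*, against 4.58% of all tested genes, and 3 were higher, against 4.83%. *Rps6kb2*, *Gsk3a* and *Rptor*, which encode an S6 kinase, an AKT substrate and a subunit of the mTORC1 complex, were lower in *Robo1-/-*. *Irs1*, *Pik3c3* (the class III PI3K) and *Insr* (the insulin receptor) were higher. *Rps6kb2*, *Gsk3a* and *Rptor* had a GC content above 55% and overlapped after GC correction, as did *Insr*, while *Irs1* and *Pik3c3* did not. *Pik3c3* was at 481, 520 and 476 in *Robo1+/+* and at 627, 689 and 676 in *Robo1-/-*, with a log2 fold change of 0.43 (SE 0.20) that was 0.42 without gh18 and 0.31 after GC correction. Its 3 *Robo1-/-* values lay close together.

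The 12 pathway genes with a GC content above 55% were all lower in gh18 than in the mean of gh06 and gh12, at a median of 41.2% of it. Of the 14 with a GC content below 47%, 13 were higher, at a median of 173%. The lowest in gh18 was *Bad*, a pro-apoptotic AKT substrate, at 5.84 in gh18 and 163 to 205 in the other 5 libraries. *Akt1s1*, an mTORC1 inhibitor that AKT phosphorylates, was at 16.1 in gh18 and 130 to 219 in the others. Median log2 fold changes of the GC-rich and AT-rich sets were -0.71 and 0.28 as deposited, and that of the GC-rich set was 0.01 after GC correction.

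The 5 tested genes whose pattern over the 6 libraries was most like that of *Pik3cd* were *Tsku*, *Gpr161*, *Nt5dc2*, *Sspo* and *Vash1*. Likeness was the root mean square difference in log2(value + 1), each gene first centred on its own mean, and it was 0.24 for *Tsku* and 0.35 to 0.39 for the others. *Tsku* was at 78.9, 32.1 and 50.7 in *Robo1+/+* and at 28.8, 11.9 and 17.5 in *Robo1-/-*. Like *Pik3cd*, it was highest in gh03 and lowest in gh12, which the choice by likeness favours. *Vash1* was at 120, 40.0 and 73.2 in *Robo1+/+* and at 41.4, 23.8 and 43.8 in *Robo1-/-*. The GC content of the 5 was between 53.4% and 60.2%, and *Pik3cd*, at 56.8%, lay within that range. Because the 5 were picked on these same 6 libraries, gh18 included, their shared order and like GC content are descriptions.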

How the data were processed

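The signal values the authors deposited are counts of reads in each known-gene cluster, scaled by a size factor for the library. The study's methods state repeat filtering, mapping to NCBI37/mm9 and normalization, and the submitters' processing notes name Bowtie, TopHat, SAMtools and DESeq. The counting tool and its use of strand are not given in the sources used here. Every value was a whole multiple of the value of 1 read (100% of values, tolerance 0.1 read), so reads were recovered. They carry no molecular identifiers, and limits from them cover counting error only. The totals of 9727191 to 17433868 reads per library set the precision, which is lowest for *Pik3cd*.

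Groups came from the labelled genotypes. limma 3.58.1 (R 4.3.3, empirical Bayes trend, Benjamini-Hochberg) was run on log2(value + 1) for the 13692 genes kept by filterByExpr of edgeR 4.0.16 (minimum count 10), without covariates. Alternatives were DESeq2 1.42.0 and edgeR on recovered reads, TMM scaling, other filters and pseudocounts (0.5 and 5), each library left out, other gene lengths, and a GC correction. The last subtracted, per library, a lowess curve (span 0.3) of log2 deviation on transcript GC content for 12322 genes. GC content, lengths and sequences came from GENCODE M1. The scripts were tested on simulated data.

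The members and gene lists were chosen with earlier results of these data known. By the plan, named genes were the 9 members, *Robo1*, markers, the 5 genes nearest to *Pik3cd*, and certain listed pathway genes. The last were to have genotypes that did not overlap and a log2 fold change beyond 1, and no pathway gene met this rule. Apart from *Pik3r5* and *Pik3r6*, the partners of *Pik3cg*, the pathway genes named were picked after their values were seen. Some planned items are not reported here. Besides the pathway and the basal, leukocyte and luminal lists of the text, endothelial markers summed to 27.7 to 90.7, the 2 of 4 erythroid markers in the table to 19.7 to 63.5, fibroblast markers to 304 to 1028 and the adipocyte marker *Fabp4* to 1.46 to 3.92. Fibroblast and endothelial sums overlapped between the genotypes, as did the others.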

Additional observations from a re-analysis of the deposited data

How the results depend on the processing

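The count of genes with an adjusted p under 0.05 was 0 in limma's fit and 1 with DESeq2, and it stayed 0 under the other alternatives. The count at an unadjusted p under 0.05, 231, was 415 when all genes with at least 1 read were kept and 117 to 879 with each library left out in turn, with 130 without gh03, 117 without gh15, 879 without gh06, 131 without gh12 and 579 without gh18. Among the pathway genes, 0 to 4 were lower at that threshold with each library left out, 4 of them without gh06, and 0 to 2 were higher, while 3 were higher after GC correction. The share of *Pik3ca* moved to 46.7% in *Robo1+/+* and 51.3% in *Robo1-/-* per coding length, and to 38.9% in *Robo1-/-* over the union of exons. The share of *Akt1* moved to 65.0% in *Robo1+/+* and 55.9% in *Robo1-/-* per coding length. Of the recomputed fold changes of the 9 genes, 125 moved by less than the spread between libraries, and only that of *Pik3r2* moved by more, when it became 0.37 after GC correction. That spread includes gh18 and is wide where gh18 lies apart, so a small move by this measure does not show a stable fold change. Without gh18, *Akt1* went from -1.024 to -0.235 and *Pik3ca*, *Pik3cb*, *Pik3r2*, *Pik3r3* and *Akt2* changed sign, all within that spread. The log2 fold change of *Pik3cd* ranged from -2.08 to -1.06. The causes of these moves were not tested. No paired analysis was possible because the labels give no replicate numbers, and the numbers 1 to 3 used here only name libraries in accession order. Depth limits *Pik3cd* most, with 19 reads in gh18.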

Other observations

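*Pik3ap1*, which encodes an adaptor that recruits PI3K in immune cells, was chosen after its values were seen. It was at 417, 91.7 and 202 in *Robo1+/+* and at 128, 29.3 and 252 in *Robo1-/-*. As for *Pik3cd*, gh03 was the highest library and gh12 the lowest, but the genotypes overlapped, with gh18 above gh09 and gh15, and gh06 above gh09. The log2 fold change was -0.997 (SE 0.87), and -1.67 without gh18. *Pik3c2g*, a class II PI3K gene also chosen after its values were seen, was at 92.9, 587 and 209 in *Robo1+/+* and at 190, 640 and 337 in *Robo1-/-*. It was lowest in gh03 and highest in gh09 and gh12, the same libraries as for *Pik3cg*.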
